A study of Mus musculus with 8 samples.

Results

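The Nodal and activin pathway was followed in mouse germ cells through 9 of the 21950 genes of a deposited count table: the co-receptor *Tdgf1*, the ligand *Nodal*, the antagonists *Lefty1* and *Lefty2*, the receptors *Acvr1b*, *Acvr2a* and *Acvr2b*, and the signal transducers *Smad2* and *Smad3*. They were chosen by role with the measured differences between these same d6PGCLC and E12.5 PGC libraries known, so that their values are a description without a test. Primordial germ cells (PGCs) are the embryonic precursors of oocytes and sperm, and PGC-like cells (PGCLCs) are made from pluripotent stem cells in culture. The d6PGCLC group held 4 pools, collected on day 8 of culture as day 6 PGCLCs positive for both the Blimp1-Venus and the Stella-ECFP reporter, from 1 female induced pluripotent stem cell line (BVSC-iPSC) that was derived from adult tail tip fibroblasts. In the study's protocol the stem cells first passed through a stage of epiblast-like cells in a separate medium. The composition of that medium is not given in the sources used here. Activin A is among the study's listed reagents, with no statement of the step that used it. PGCLC culture then began with BMP4, SCF, LIF and EGF, and a later medium, used up to collection, contained SCF, LIF and EGF. The E12.5 PGC group held 4 pools of cells sorted as SSEA1 and integrin β3 positive from female gonads of inbred C57BL/6J embryos at E12.5. The labels name no deletion or drug in either group, and only the d6PGCLCs carry the reporters. Cell source, developmental stage, culture and the labelled sort gate differed between the groups, the genetic background of the line is not given in the sources used here, and the parts of these cannot be told apart.

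The total of counted reads lay between 7991437 and 12024841 per library, so that 3 counts, taken as the floor of detection, corresponded to 0.249 to 0.383 CPM (counts scaled to a common library total, with TMM factors). The floor covers counting error only, because PCR copies cannot be recognized. All 10 germ cell markers were detected in both groups, with summed levels of 3950 to 4550 CPM in d6PGCLCs and 4510 to 5050 CPM in E12.5 PGCs. These sums cover markers that differ in opposite directions: *Ddx4* and *Dazl*, genes of later germ cells, stood at 27.2 to 42.8 and 17.8 to 63.9 CPM in d6PGCLCs and at 626 to 836 and 1018 to 1580 CPM in E12.5 PGCs, while *Prdm1*, *Prdm14*, *Tfap2c*, *Dppa3* and *Pou5f1* were higher in every d6PGCLC library. *Prdm1*, also called Blimp1, and *Dppa3*, also called Stella, are the genes whose reporters the sort of the d6PGCLCs required. The 9 gonadal somatic markers in the table summed to 2.89 to 6.95 CPM in E12.5 PGCs and to 0.407 to 1.45 CPM in d6PGCLCs, where all 9 were at the floor. Stromal markers summed to between 0.332 and 18.5 CPM in d6PGCLCs and 0.361 and 3.89 CPM in E12.5 PGCs. E12.5 PGC replicate 4, labelled female, stood apart from the other 7 libraries in holding 53 counts on 4 Y-linked genes, where the others held 0. Results that rest on this library are given with and without it.

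Nodal and the activins are secreted ligands of the TGF-beta family that signal through a complex of type I receptors, such as ACVR1B, and type II receptors, ACVR2A and ACVR2B. The receptors phosphorylate SMAD2 and SMAD3, which enter the nucleus with SMAD4 and act on DNA with partners such as FOXH1. Nodal, unlike activin, needs an EGF-CFC co-receptor such as TDGF1, also called Cripto, which is anchored to the cell surface. The Lefty proteins bind Nodal or its co-receptor and block signalling, and *Nodal*, *Lefty1* and *Lefty2* are themselves known targets of the pathway. In the fetal gonad, the pathway is known for a transient activity in XY germ cells after sex determination.

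The 250 bases upstream of the start of *Tdgf1* and of *Nodal* are shown because these are the co-receptor and the ligand that the comparison turns on. Both were read from the RefSeq promoter table for GRCm38.p6, which held 6 of the 9 members. Capitals mark matches to AATNNACA, a FOXH1 type motif written loosely, with any base allowed at N. It was searched on both strands together with the SMAD type motif CAGACA. The *Tdgf1* window is chr9:110946159-110946408 on the minus strand and the *Nodal* window is chr10:61417722-61417971 on the plus strand.
Tdgf1: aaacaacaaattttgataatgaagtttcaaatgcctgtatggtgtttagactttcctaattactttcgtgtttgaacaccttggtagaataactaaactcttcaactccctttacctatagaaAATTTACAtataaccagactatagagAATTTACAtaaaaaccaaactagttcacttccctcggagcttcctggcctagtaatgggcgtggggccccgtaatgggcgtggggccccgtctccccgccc
Nodal: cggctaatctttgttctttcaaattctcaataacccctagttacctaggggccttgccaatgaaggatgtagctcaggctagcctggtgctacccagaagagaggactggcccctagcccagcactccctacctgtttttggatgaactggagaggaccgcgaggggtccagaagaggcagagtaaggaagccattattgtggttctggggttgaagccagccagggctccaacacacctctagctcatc
The *Tdgf1* window held 2 matches to AATNNACA, from 127 to 120 and from 101 to 94 bases upstream of the start, both on the strand of the gene and not overlapping, and no match to CAGACA. The *Nodal* window held neither motif, and neither did the windows of *Acvr1b*, *Acvr2a*, *Acvr2b* and *Smad3*. Over all 32851 promoters of the table, 10.9% held AATNNACA at least once, 1.12% held it at least 2 times, and 17.1% held CAGACA in the same length. These matches describe letters only, and binding of FOXH1 to them was not tested.

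The largest difference among the members was that of the co-receptor. *Tdgf1* (Entrez 21667, chromosome 9, 110939608 to 110946158, minus strand) stood at 134, 153, 121 and 117 CPM in d6PGCLC replicates 1 to 4. In E12.5 PGC replicates 1 to 4 it stood at 3.74, 6.42, 6.92 and 8.21 CPM. Every d6PGCLC library lay above every E12.5 library, and the E12.5 values rested on 30, 61, 75 and 91 counts, well over the floor. The means were 131 ± 16.2 and 6.32 ± 1.88 CPM (SD, n = 4 each), a 20.4-fold higher level in d6PGCLCs, with a log2 fold change of 4.35 (SE 0.16). In bulk RNA from pooled cells, fewer cells of a type and less RNA per cell cannot be told apart. The transcript of *Tdgf1* closest in length to the counted isoform shared 86 of its 1833 windows of 100 bases, the read length, with the pseudogene *Tdgf1-ps1*, and reads from such windows have more than 1 position.

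**Figure D1:**
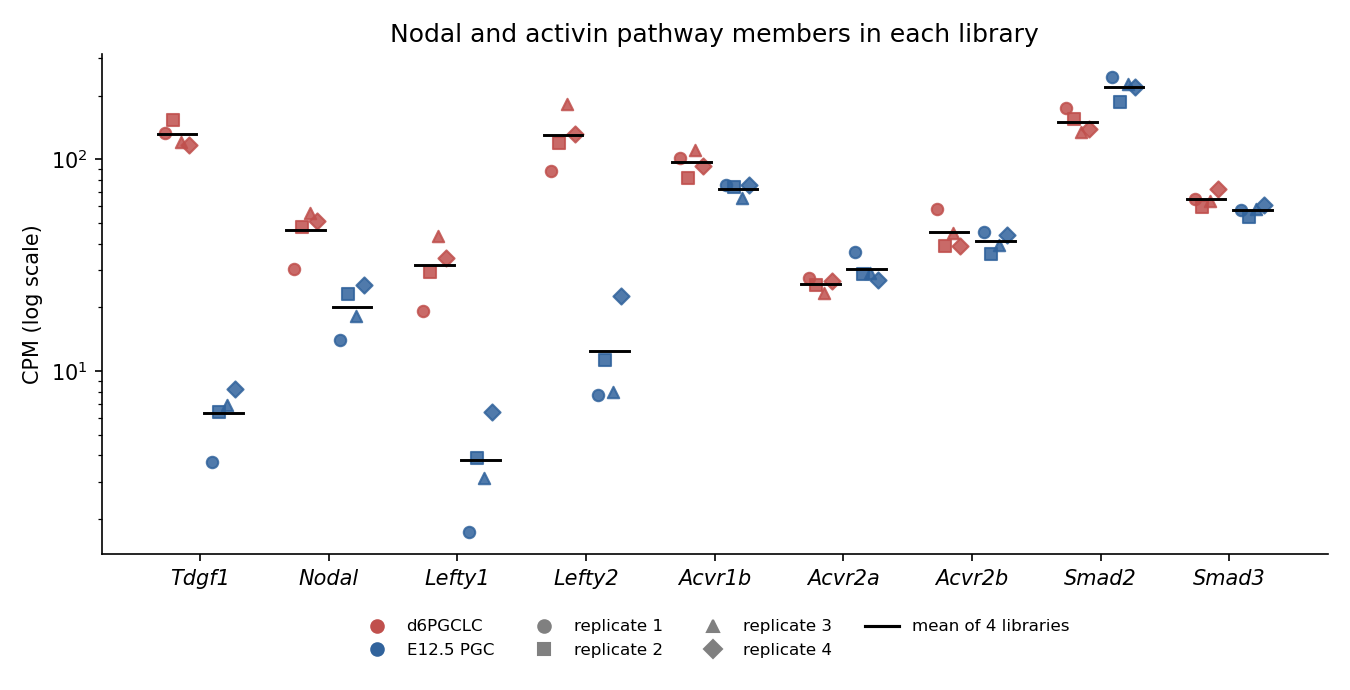
CPM of the 9 members in each library on a log axis; red points are d6PGCLC and blue points E12.5 PGC libraries, marker shapes are replicates 1 to 4 and black bars are group means (n = 4). *Tdgf1*, *Nodal*, *Lefty1*, *Lefty2* and *Acvr1b* lie higher in all d6PGCLC libraries and *Smad2* lower, while the groups overlap for *Acvr2a*, *Acvr2b* and, without a correction for length, *Smad3*.

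The ligand differed less than its co-receptor. *Nodal* (Entrez 18119, chromosome 10, 61417972 to 61425338, plus strand) was measured at 30.5, 48.2, 55.6 and 51.3 CPM in d6PGCLC replicates 1 to 4. The E12.5 PGC libraries gave 13.97, 23.0, 18.3 and 25.5 CPM in the same order. The groups did not overlap, but the lowest d6PGCLC library, replicate 1, came close to the highest E12.5 library, replicate 4. The group means of 46.4 ± 11.0 and 20.2 ± 5.11 CPM differed 2.29-fold, with a log2 fold change of 1.20 (SE 0.18).

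Both antagonists were far higher in d6PGCLCs. *Lefty1* (Entrez 13590, chromosome 1, 180935022 to 180938401, plus strand) gave 19.3, 29.4, 43.6 and 34.2 CPM in d6PGCLC replicates 1 to 4 and 1.75, 3.89, 3.14 and 6.41 CPM in E12.5 PGC replicates 1 to 4. Its means were 31.6 ± 10.1 and 3.80 ± 1.96 CPM, an 8.16-fold difference with a log2 fold change of 3.03 (SE 0.28). *Lefty2* (Entrez 320202, chromosome 1, 180893108 to 180899107, plus strand), its neighbour on the chromosome, gave 88.2, 120.03, 182 and 132 CPM in d6PGCLCs. The E12.5 PGC libraries gave 7.74, 11.3, 7.93 and 22.7 CPM for *Lefty2*. The means of 130.4 ± 38.9 and 12.4 ± 7.07 CPM differed 10.4-fold, with a log2 fold change of 3.38 (SE 0.25). For neither gene did the groups overlap, and for both the highest d6PGCLC library stood at more than 2 times the lowest. The 2 genes shared 73 windows of 100 bases, which made up 4.8% of those of *Lefty1* and 3.1% of those of *Lefty2*, so that most of each transcript could be told from the other.

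*Nodal*, *Lefty1* and *Lefty2* were ordered alike at the ends of each group. All 3 were lowest in d6PGCLC replicate 1 and highest in d6PGCLC replicate 3. In the E12.5 PGC group these genes and *Tdgf1* were lowest in replicate 1 and highest in replicate 4, the library with counts on Y-linked genes. Without E12.5 PGC replicate 4, the log2 fold change was 4.50 for *Tdgf1*, 1.33 for *Nodal*, 3.41 for *Lefty1* and 3.86 for *Lefty2*, each above the value with it. The part of the Y-linked signal in these levels was not tested. Libraries also differed in how their levels varied with exonic length, with slopes from -0.241 to 0.241 (log2 per unit of log10 length). Replicate 1 had the steepest positive slope in each group, at 0.233 in d6PGCLCs and 0.241 in E12.5 PGCs. After a correction for length, *Lefty1* still ran from 19.3 CPM in d6PGCLC replicate 1 to 41.6 CPM in replicate 3, and *Lefty2* from 86.1 to 175 CPM. The corrected values in E12.5 PGC replicates 1 and 4 were 1.89 and 6.62 CPM for *Lefty1* and 8.09 and 23.6 CPM for *Lefty2*.

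The mean levels of the receptors differed by at most 1.34-fold between the groups. *Acvr1b*, the type I receptor (Entrez 11479, chromosome 15, 101174072 to 101213684, plus strand), stood at 101, 82.1, 111 and 93.2 CPM in d6PGCLCs and at 75.4, 74.2, 65.4 and 75.3 CPM in E12.5 PGCs. The groups did not overlap, although d6PGCLC replicate 2 was close to the E12.5 libraries, and the log2 fold change was 0.42 (SE 0.11). *Acvr2b*, a type II receptor (Entrez 11481, chromosome 9, 119401583 to 119442148, plus strand), stood at 58.6, 39.1, 45.1 and 39.0 CPM in d6PGCLCs and at 45.5, 35.8, 39.3 and 44.1 CPM in E12.5 PGCs. These ranges overlapped widely, the log2 fold change was 0.14 (SE 0.14), and it came to 0.00 without d6PGCLC replicate 1. *Acvr2a*, the other type II receptor (Entrez 11480, chromosome 2, 48814109 to 48903264, plus strand), stood at 27.6, 25.5, 23.4 and 26.8 CPM in d6PGCLCs and at 36.4, 28.8, 29.1 and 26.8 CPM in E12.5 PGCs. Its groups overlapped at the lowest E12.5 library, with a log2 fold change of -0.23 (SE 0.14). *Acvr2a* shares exon bases with the antisense gene *Orc4* (6.2% of its windows), and whether the counting used strand is not given in the sources used here.

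The transducers differed from each other. *Smad2* (Entrez 17126, chromosome 18) was the only member lower in every d6PGCLC library than in every E12.5 library. It stood at 174, 155, 135 and 139 CPM in d6PGCLCs and at 246, 187, 227 and 219.9 CPM in E12.5 PGCs, with means of 151 ± 17.7 and 219.9 ± 24.3 CPM. The level was 1.46-fold lower in d6PGCLCs, with a log2 fold change of -0.55 (SE 0.10) that came to -0.40 with the correction for length. *Smad3* (Entrez 17127, chromosome 9, 63646766 to 63757994, minus strand) stood at 64.8, 59.5, 63.8 and 72.7 CPM in d6PGCLCs and at 57.8, 53.4, 58.6 and 60.8 CPM in E12.5 PGCs. The 2 ranges overlapped, with a log2 fold change of 0.18 (SE 0.11), whereas after the correction for length they did not, at 62.4 to 71.7 CPM in d6PGCLCs and 53.8 to 61.3 CPM in E12.5 PGCs.

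**Figure D2:**
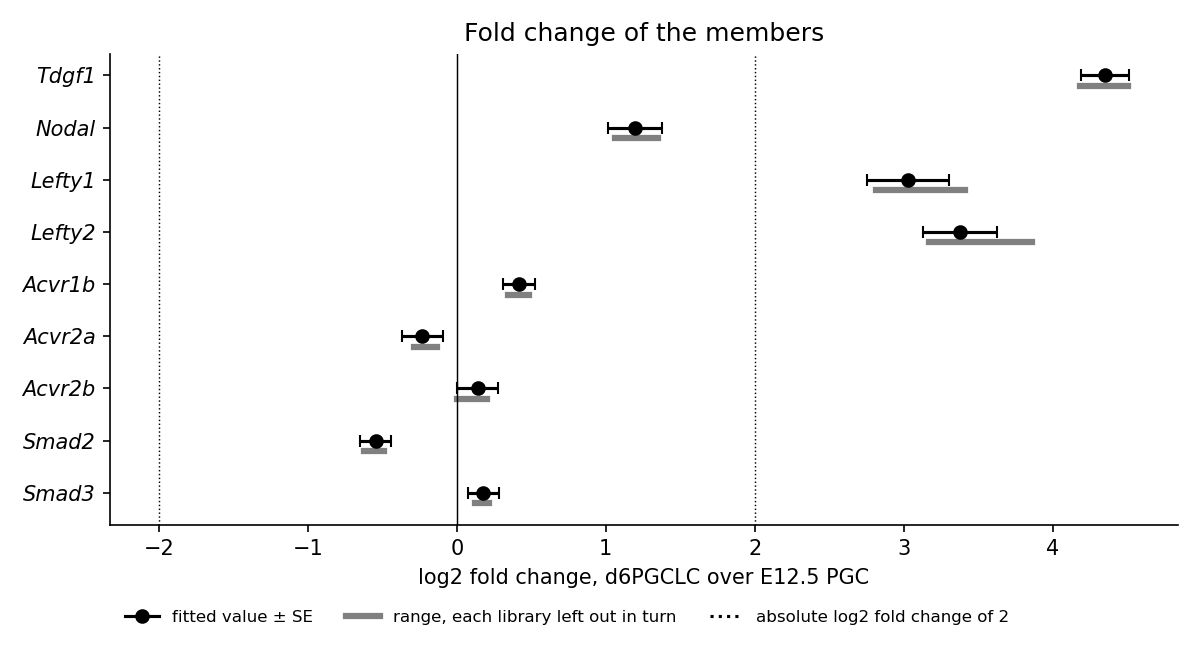
Fitted log2 fold change of each member, d6PGCLC over E12.5 PGC, with its SE (black points and bars) and the range when each library is left out in turn (grey bars); dotted lines mark an absolute log2 fold change of 2. *Tdgf1*, *Lefty1* and *Lefty2* stay above 2, *Nodal* lies between 1.06 and 1.35, and the receptors and transducers stay between -0.62 and 0.49.

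Counted by the study's thresholds, an adjusted p at or below 0.05, taken here from edgeR's quasi-likelihood fit of the whole table in place of the likelihood ratio test that the study used, together with a log2 fold change at or beyond 2 in either direction, 3 of the 9 members were higher (*Tdgf1*, *Lefty1* and *Lefty2*) and 0 lower. The same rule held for 3.24% of all genes in the higher and 3.37% in the lower direction. By the adjusted p alone, 5 members were higher, with *Nodal* and *Acvr1b* added, and *Smad2* was lower, against 16.1% and 15.4% of all genes. The groups did not overlap for these same 5 and 1 members, against 15.4% of all genes higher and 14.8% lower in every d6PGCLC library. Since the members were chosen with this contrast known, nothing is read from these counts. The median log2 fold change was 0.42 over the members and 0 over all genes.

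Levels of different genes were compared as RPKM, CPM per kilobase of the counted isoform. In d6PGCLCs, *Tdgf1* (57.8 ± 7.13 RPKM) and *Lefty2* (49.8 ± 14.8 RPKM) led the members, overlapped each other, and lay above all others. They were followed by *Acvr1b* (26.6 ± 3.35 RPKM), *Acvr2b* (22.0 ± 4.45), *Nodal* (20.9 ± 4.98), *Lefty1* (17.9 ± 5.73) and *Smad2* (17.2 ± 2.02), in which each neighbour overlapped the next. *Smad3* (12 ± 1.02 RPKM) came next, below every *Smad2* value but overlapping *Lefty1*, whose lowest library stood at 10.9 RPKM, and *Acvr2a* (4.06 ± 0.287 RPKM) came last, below all others. In E12.5 PGCs the order began with *Smad2* (25.1 ± 2.78 RPKM), followed by *Acvr1b* (19.9 ± 1.32) and *Acvr2b* (19.9 ± 2.17), which overlapped each other. The lowest *Smad2* library, at 21.4 RPKM, lay above every *Acvr1b* value but below the highest *Acvr2b* value of 22.0 RPKM. *Smad3* (10.6 ± 0.575 RPKM) and *Nodal* (9.12 ± 2.31) overlapped each other below these. *Acvr2a* (4.77 ± 0.663 RPKM), *Lefty2* (4.74 ± 2.70), *Tdgf1* (2.79 ± 0.828) and *Lefty1* (2.15 ± 1.11) closed the order, each overlapping the next. *Tdgf1* thus stood at rank 1 of 9 in d6PGCLCs and at rank 8 in E12.5 PGCs. Without division by length, the longest transcript, *Smad2*, ranked 1 in both groups and *Tdgf1* ranked 2 in d6PGCLCs and 8 in E12.5 PGCs.

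Ratios within a library do not depend on its depth or scaling. The antagonists together stood at 3.24, 2.87, 3.75 and 3.00 times the RPKM of *Nodal* in d6PGCLC replicates 1 to 4. In E12.5 PGC replicates 1 to 4 the same ratio was 0.624, 0.625, 0.582 and 1.07, so that antagonist transcripts exceeded those of the ligand in all d6PGCLC libraries and, among the E12.5 libraries, in replicate 4 alone. The ratio of *Tdgf1* to *Nodal* was 4.27, 3.10, 2.13 and 2.23 in d6PGCLCs and 0.261, 0.272, 0.370 and 0.315 in E12.5 PGCs, with no overlap. *Tdgf1* exceeded the type I receptor *Acvr1b* 1.76 to 2.99 times in d6PGCLCs, and its ratio to *Acvr1b* was 0.0796 to 0.175 in E12.5 PGCs. The ratio of *Lefty2* to *Lefty1* overlapped between the groups, at 2.59 to 3.08 in d6PGCLCs and 1.70 to 2.98 in E12.5 PGCs. *Smad2* exceeded *Smad3* in every library, by 1.19 to 1.67 times in d6PGCLCs and 2.19 to 2.65 times in E12.5 PGCs.

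**Figure D3:**
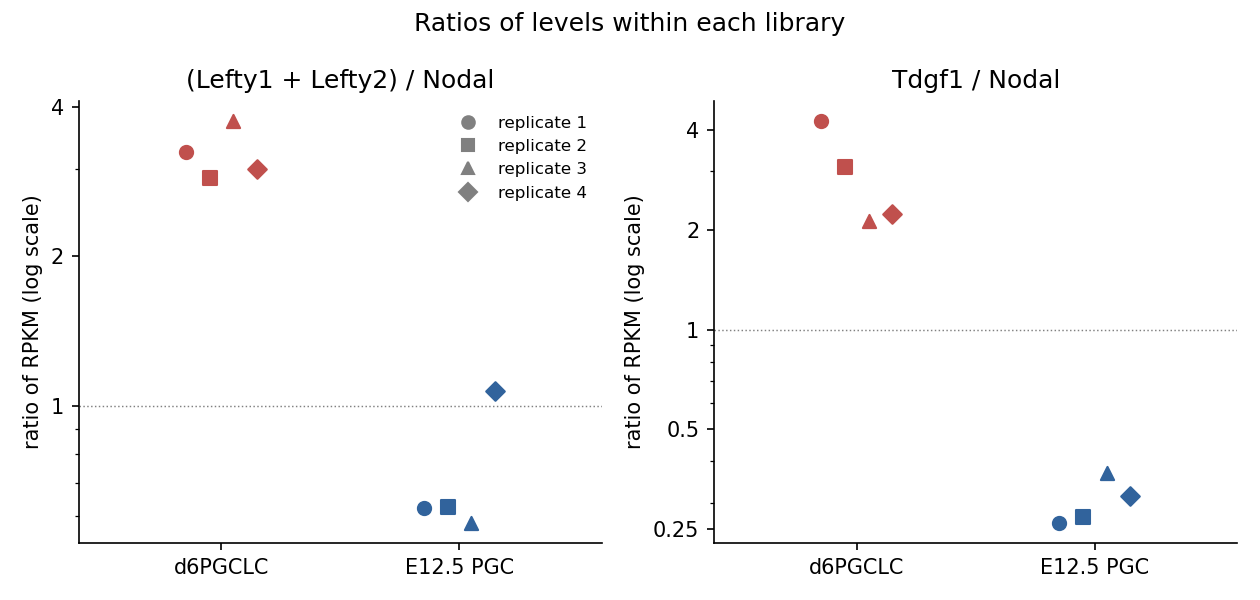
Ratios of RPKM within each library on log axes, *Lefty1* plus *Lefty2* over *Nodal* on the left and *Tdgf1* over *Nodal* on the right; each point is 1 library, red for d6PGCLC and blue for E12.5 PGC, with marker shapes for replicates 1 to 4 and a dotted line at a ratio of 1. The d6PGCLC libraries lie above 2 in both panels, and 1 E12.5 library, replicate 4, lies just above 1 on the left.

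The rest of the pathway was described with a list of 53 other ligands, receptors, antagonists, Smad partners, inhibitors and targets, of which 49 were in the table. *Inha*, *Dand5*, *Drap1* and *Lhx1* were not analysed here. By edgeR's quasi-likelihood test, adjusted over all genes, 16 of the 49 (32.7%) were higher in d6PGCLCs, 17 (34.7%) were lower and 16 did not pass, and their median log2 fold change was -0.01. For all genes of the table, 4940 of which had no count in any library, the shares were 16.1% and 15.4%; of the 49 listed genes, 2 (*Inhba* and *Mstn*) had none. With the fold threshold of 2 on the log2 scale added, 3 were higher and 6 lower, and these 9 calls came to 5 when genes were filtered on a CPM above 1 in at least 3 samples and to 4 with filterByExpr.

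Among the 11 other ligands, 3 rose and 3 fell. *Gdf3*, a Nodal-like ligand that also uses the co-receptor and the most abundant ligand per length, was higher in d6PGCLCs (103 against 59.5 CPM, log2 fold change 0.79, adjusted p = 3.96e-05 by edgeR). *Inhbb*, which encodes an activin subunit, was low in both groups and higher in d6PGCLCs (3.35 against 1.58 CPM, log2 fold change 1.06, edgeR adjusted p = 0.0061). *Tgfb1*, a ligand that acts through other receptors on the same Smads, was lower in d6PGCLCs (10.8 ± 2.51 against 29.7 ± 2.33 CPM, log2 fold change -1.45, edgeR adjusted p = 3.84e-07). *Tgfb2* was higher (3.89 against 1.91 CPM, log2 fold change 1.04, edgeR adjusted p = 0.0102), but without E12.5 PGC replicate 3 the adjusted p was 0.0512. *Gdf1*, a partner of Nodal, was lower in d6PGCLCs (9.51 ± 2.39 against 14.4 ± 0.913 CPM, log2 fold change -0.60, edgeR adjusted p = 0.0135), and without d6PGCLC replicate 4 the adjusted p was 0.0538. *Gdf11*, a ligand of the activin receptors, was the only one of these ligands past both thresholds (0.219 against 1.85 CPM, log2 fold change -2.91, edgeR adjusted p = 0.000248), at 0 to 6 counts per d6PGCLC library and 12 to 23 per E12.5 library. Its log2 fold change came to -3.84 without d6PGCLC replicate 3 and to -2.23 with a prior count of 2.

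Of the 6 other receptors and co-receptors, 4 were higher and 1 lower. *Tgfbr2*, the type II receptor of TGF-beta (chromosome 9, 116087695 to 116175363), gave 8.30, 9.06, 10.04 and 10.9 CPM in d6PGCLCs and 1.25, 1.47, 0.553 and 0.993 CPM in E12.5 PGCs. The 2 groups stood far apart, with a log2 fold change of 3.18 (SE 0.29, edgeR adjusted p = 7.45e-09). *Tgfbr1*, its type I partner, was lower in d6PGCLCs (log2 fold change -0.54), and *Eng*, the co-receptor endoglin, was higher (79.5 against 58.3 CPM, log2 fold change 0.45, edgeR adjusted p = 0.00205). Markers of endothelial cells, a cell type known for *Eng* and *Tgfbr2*, summed to 20.0 to 34.5 CPM in d6PGCLCs and 14.5 to 25 CPM in E12.5 PGCs, with 2 of 5 at the floor in d6PGCLCs. Nearly all of these sums came from *Cdh5* and *Tek*, while *Kdr*, *Tie1* and *Emcn* held at most 6 counts in any library. The part of endothelial cells in these results was not tested. *Cfc1*, the other EGF-CFC co-receptor, passed the test at a log2 fold change of 0.83 (edgeR adjusted p = 0.0269), but its groups overlapped, and the call was lost without d6PGCLC replicate 2 (adjusted p = 0.109) and without E12.5 PGC replicate 2 (0.0556), 3 (0.061) or 4 (0.109), and with the correction for length (0.0513).

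Of the 6 secreted antagonists and convertases, 2 were higher and 2 lower. *Fstl3*, which binds activin (chromosome 10, 79777274 to 79782630), stood at 19.3, 16.3, 6.56 and 7.52 CPM in d6PGCLCs and 2.12, 3.16, 2.12 and 1.72 CPM in E12.5 PGCs. Its d6PGCLC libraries fell into a higher and a lower pair, all above the E12.5 libraries, with a log2 fold change of 2.44 (SE 0.33, edgeR adjusted p = 3.48e-06). *Pcsk6*, a convertase that cleaves the Nodal precursor (chromosome 7, 65862136 to 66050386), stood at 142, 148, 129 and 131 CPM in d6PGCLCs and at 62.3, 40.1, 49.4 and 40.2 CPM in E12.5 PGCs, a 2.87-fold difference (log2 fold change 1.52, SE 0.12, edgeR adjusted p = 3.47e-09). *Furin*, the other convertase of Nodal, differed in the opposite direction (112 against 171 CPM, log2 fold change -0.61, edgeR adjusted p = 0.000487). *Fst*, which encodes follistatin, held at most 4 counts in a d6PGCLC library and 9 to 25 counts in the E12.5 libraries. It is also a known gene of ovarian somatic cells, whose markers were higher in the E12.5 libraries as given above, and their part in its level was not tested.

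Of the 5 other Smads and Smad partners, 3 were lower in d6PGCLCs and none passed the test as higher. *Foxh1*, the DNA-binding partner of SMAD2, was lower (119 against 220.5 CPM, log2 fold change -0.89, edgeR adjusted p = 1.38e-06). *Zfyve9*, also called SARA, which presents SMAD2 to the receptor, was lower as well (27.6 against 61.8 CPM, log2 fold change -1.16, edgeR adjusted p = 3.71e-07). *Smad4*, the common partner, had a log2 fold change of 0.07 (edgeR adjusted p = 0.756), which came to -0.02 without d6PGCLC replicate 1.

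Of the 10 intracellular inhibitors, 6 were higher and 2 lower. *Pmepa1*, which binds SMAD2 and SMAD3 and is itself induced by the pathway (chromosome 2, 173224458 to 173276731), stood at 15.1, 13.9, 13.03 and 11.4 CPM in d6PGCLCs and at 1.87, 2.00, 1.75 and 2.89 CPM in E12.5 PGCs. The groups were far apart, with a log2 fold change of 2.63 (SE 0.23, edgeR adjusted p = 4.82e-09). *Smad7*, the inhibitory Smad, had a log2 fold change of 0.76, the corepressors *Ski* and *Skil* 0.59 and 0.41, the phosphatase *Ppm1a* 0.56, and *Tgif2*, a corepressor and the most abundant gene of this role per length, 0.71 (538 against 329 CPM, edgeR adjusted p = 8.06e-07). The pseudoreceptor *Bambi* was lower, at -0.93, and so was the ubiquitin ligase *Smurf2*, at -0.77.

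Of the 11 other target genes, 6 were lower in d6PGCLCs. *Ccn2*, the most abundant per length, was lower (25.5 against 54.6 CPM, log2 fold change -1.10, edgeR adjusted p = 3.63e-06). The other 5 that fell, *Mixl1*, *T*, *Foxa2*, *Sox17* and *Fgf8*, were low in every library, none with more than 22 counts. *Eomes*, like these a regulator of mesoderm and endoderm, did not pass the test and lay the other way, at 3 to 7 counts in d6PGCLC and 1 or 2 in E12.5 libraries (log2 fold change 1.44, edgeR adjusted p = 0.113). The 6 epiblast and mesoderm markers summed to 20.4 to 35.6 CPM in d6PGCLCs and 29.2 to 31.9 CPM in E12.5 PGCs, with *Hand1* at 0.25 to 0.81 against 6.68 to 9.73 CPM and *Dnmt3b* at 14.3 to 27.3 against 7.89 to 12.4 CPM. The 5 that fell were named after their values had been seen, and their fold changes depend on the prior count. Gonadal somatic markers were also higher in every E12.5 library, as given above. Blood markers summed to 3.37, 26, 0 and 2.08 CPM in E12.5 PGC replicates 1 to 4 and to at most 0.204 CPM in d6PGCLCs. All of the E12.5 sum came from the globin gene *Hbb-y*, while *Ptprc* and *Lyz2* held no count there. The part of either list in these low counts was not tested.

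**Figure D4:**
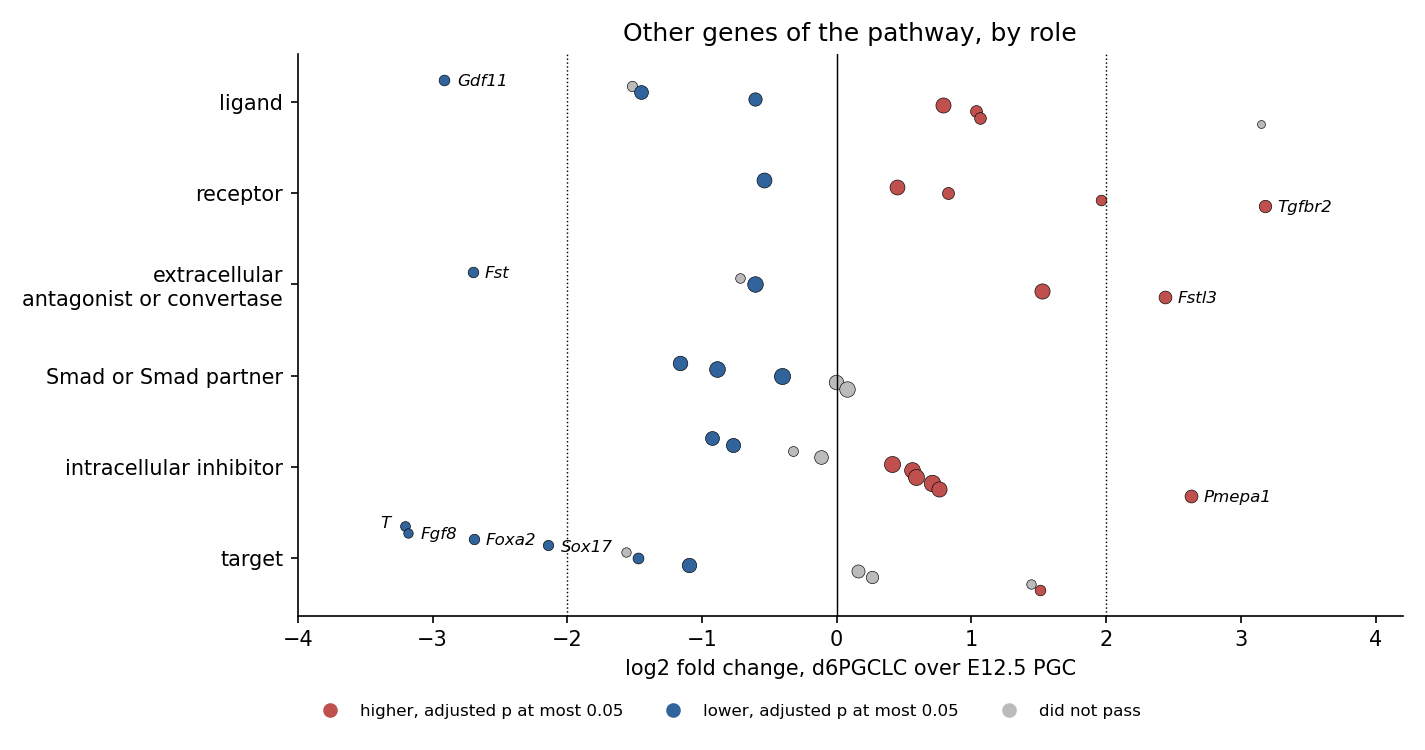
Log2 fold change, d6PGCLC over E12.5 PGC, of the 44 other pathway genes with more than 3 counts in at least 1 library, by role; each point is a gene, its area grows with the log of its mean count, dotted lines mark -2 and 2, red and blue mark an adjusted p of at most 0.05 and grey marks genes that did not pass. The called genes beyond 2 are *Tgfbr2*, *Fstl3* and *Pmepa1*, the grey point there is *Inhbc* with a mean of 0.5 counts, and the 6 named genes below -2 are among the smallest points.

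The genes whose pattern over the 8 libraries was most like that of a member were found by Pearson's r of log2(CPM + 0.5) over the 8117 genes that averaged 100 counts or more. The libraries share their group, so that r is high for any gene that separates the groups and is given as a description. For *Tdgf1* the nearest were *Atat1* (r = 0.9984), *Clic1* (0.9976), *Hspbap1* (0.9974), *App* (0.9972) and *Yif1b* (0.9969). For *Nodal* they were *Bpgm* (0.9927), *Chek2* (0.9918), *Ptdss2* (0.9901), *Ndn* (0.9898) and *Ptges2* (0.9889). For *Lefty1* they included *Nt5c* (0.9943), *Cuedc2* (0.9926), its own relative *Lefty2* (0.9922) and *2410003L11Rik* (0.9910). *Lefty2* was the only other member among these genes. The deviations from the group means over the 8 libraries correlated at r = 0.93 for *Lefty1* and *Lefty2*. Those of *Nodal* correlated at 0.951 with *Lefty1* and at 0.836 with *Lefty2*. Such values were not particular to the members, since *Bpgm* reached 0.97 with *Nodal* and *Nt5c* 0.95 with *Lefty1*. Other pairs of members were lower or negative, such as *Tdgf1* and *Nodal* (0.507), *Lefty1* and *Acvr2a* (-0.9) and *Nodal* and *Smad2* (-0.833).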

How the data were processed

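The authors aligned single-end reads of stranded poly(A) libraries with STAR to GRCm38 (mm10) with ERCC sequences added and deposited unnormalized counts for each Entrez gene: uniquely placed reads that QuasR found on exons of 1 randomly drawn isoform, after removing genes with overlapping promoters at random. The deposited table also gives the isoform length. Each pool came from an independent experiment, and 0 value columns were left unused. Symbols came from RefSeq for 21907 of 21950 genes.

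Counts were normalized with TMM and fitted over all genes without a filter with edgeR 4.0.16 (R 4.3.3; glmQLFit, glmQLFTest, prior count 0.125, cell type as the only term, Benjamini-Hochberg adjustment), after the steps were tested on simulated data. Members and gene lists were chosen with earlier results of these data known. Other pathway genes were named at an adjusted p of at most 0.05, a log2 fold change at or beyond 1 in either direction and 20 counts or more on average, or as the most abundant of their role per length, with further genes of the lists named for their roles. Motifs and similar genes followed stated rules. The alternatives tried were DESeq2 1.42.0, edgeR's likelihood ratio test, 3 other scalings, 2 low-count filters, a prior count of 2, a replicate block, leaving out each library, and a length offset (loess, span 0.5) added after seeing the data. Libraries of 1 group differed by more than counting error (a chi-square of 3.19 to 20.8 for each degree of freedom). The results for 2 genes of these lists are not reported here.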

Additional observations from a re-analysis of the deposited data

Results flagged for a closer look

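The level of *Acvr1b* in E12.5 PGC replicate 3 was 65.4 CPM, away from the other 3 libraries of its group at 74.2 to 75.4 CPM, with a gap of 0.883 of the group's range. *Eng* in E12.5 PGC replicate 1 was 52.1 CPM, against 59.7 to 60.7 CPM in the other 3, with a gap of 0.874 of the range. These were 2 of 80 sets of 4 libraries tested by Dixon's criterion, of which chance gives 4. E12.5 PGC replicate 4, labelled female, held 53 counts on Y-linked genes, where the other 7 libraries held 0, and was also the highest E12.5 library for *Tdgf1*, *Nodal*, *Lefty1* and *Lefty2*. The relation between the 2 was not tested.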

How the results depend on the processing

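For the 9 members, all 162 log2 fold changes under 18 alternatives kept their direction, or in the case of *Acvr2b* without d6PGCLC replicate 1 came to 0.00, and kept their side of both thresholds. For the 14 pathway genes chosen by rule, 251 of 252 values kept direction and call, the other being *Tgfb2* without E12.5 PGC replicate 3 (0.88, edgeR adjusted p = 0.0512). For 17 further pathway genes of the text, run after their values were seen, 290 of 297 did so, the filters removed 9 values, 6 calls at the adjusted p were lost (5 of *Cfc1*, 1 of *Gdf1*), and *Smad4*, not called, lay between -0.016 and 0.147 over the libraries left out. The calls over all genes, 1452 (712 higher, 740 lower), came to 1652 (773 higher, 879 lower) with the likelihood ratio test, to 934 with a CPM above 1 in at least 3 samples (435 lower), to 847 with filterByExpr (464 higher, 383 lower) and to 832 with a prior count of 2 (450 higher, 382 lower), and the 9 called pathway genes to 11, 5, 4 and 5 in the same order. The filters test fewer genes and the prior shrinks low counts. Deviations of same-numbered libraries correlated at 0.302, 0.114, -0.0382 and 0.0411. Numbers 2 and 3 matched another number better, while numbers 1 and 4 matched their own best. Whether libraries of the same number share a batch cannot be told from these values. With a replicate block the calls were 1280 (642 higher, 638 lower) and 9 pathway genes. Depth limits the genes with few counts, such as 5 of the targets that fell, and not the members, all of which passed both filters on low counts.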
